A study of Mus musculus with 6 samples.

Results

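The genes described here are those of the T-cell receptor beta locus. Every gene of the count files whose GENCODE symbol starts with Trbv, Trbd, Trbj or Trbc and that lies on chromosome 6 was taken. This gave 53 of the 47729 genes in the files. There are 35 variable (V) genes, 2 diversity (D) segments, 14 joining (J) segments and 2 constant (C) genes. They lie between positions 40891229 and 41558452 of mm10 chromosome 6, all on the plus strand except Trbv31. Of the V genes 13 are annotated as pseudogenes, and 1 J segment, Trbj2-6, is too.

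The beta chain is 1 of the 2 chains of the alpha-beta T-cell receptor. Its gene is assembled in thymocytes by the RAG recombinase, which first joins a D to a J segment and later a V gene to the joined DJ. Before any joining, the unrearranged D, J and C segments are already transcribed from promoters near the D segments, and the completed chain pairs with pre-T alpha at the beta-selection checkpoint. The D, J and C segments are arranged in 2 clusters, each with 1 D, 7 J and 1 C gene. A read count at a segment does not tell transcripts of the unrearranged locus from those of a joined gene.

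RNA was sequenced from DN1a/b thymus cells, the earliest thymocytes, sorted by flow cytometry from C57BL/6 mice. Control mice are the comparison group for RBPJ, the DNA-binding partner of Notch receptors. The labels describe RBPJ uninduced mice as deficient in it, and RBPJ 6 days induced mice as deficient until its expression was induced for 6 days. Doxycycline brought this about, first as an injection (2 mg/ml) and afterwards in drinking water (1 mg/ml). Each group has 2 libraries, and values below are always given for replicate 1 and then replicate 2. The labels name neither the alleles, nor the cells in which they act, nor the age of the mice. Doxycycline treatment of Control or uninduced mice is not mentioned either, so effects of RBPJ and of the drug cannot be told apart in comparisons with induced libraries. Whether replicate libraries stem from different animals is not recorded, and p-values therefore measure only a spread between libraries that may be technical.

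Rbpj RNA stood at 74.1 and 72.9 CPM in Control, 28.2 and 29.98 CPM in RBPJ uninduced and 198 and 203 CPM in RBPJ 6 days induced, where CPM are counts per 1000000 counts of the scaled library total. It was thus reduced but not absent in the libraries labelled RBPJ uninduced (log2 difference from Control -1.34 ± 0.186 (SE), edgeR adjusted p = 0.00495), and it was above Control in RBPJ 6 days induced (1.45 ± 0.182, adjusted p = 0.0175). The targeted part of Rbpj is not named, and RNA counts do not measure how much working protein remained. Depth was 5098927 to 12932928 counts per library. Kit, Cd44, Flt3, Il7r and Cd24a, listed as markers of early thymocytes, were detected in every library, and Kit, the stem cell factor receptor, stood at 372 to 631 CPM. Cd44 had 390 and 342 CPM in Control, 198 and 196 in RBPJ uninduced and 349 and 307 in RBPJ 6 days induced. Flt3 had 168 and 88.3 CPM in Control, 56.2 and 20.7 in RBPJ uninduced and 176 and 149 in RBPJ 6 days induced. Of the 6 listed genes, Il2ra included, Cd44 alone passed 0.05 in uninduced against Control (log2 difference -0.89 ± 0.169, edgeR adjusted p = 0.0188). Flt3 had -1.75 ± 0.440 (edgeR adjusted p = 0.0525). Il2ra, which encodes the CD25 that cells at this stage lack on their surface, was at 0.522 CPM in RBPJ uninduced replicate 1 and 15.9 to 38.5 CPM in the others. Transcripts of other cell types differed between libraries. The 11 markers of later thymocytes and mature T cells summed to 725 CPM in Control replicate 2 and 52.3 to 194 CPM in the other 5 libraries, with Cd4 at 61.6 and Cd8a at 79.96 CPM in that library. The 6 B-lineage markers summed to 1299.8 CPM in RBPJ uninduced replicate 2 and 56.5 to 271 CPM elsewhere. The 7 myeloid markers summed to 4351 and 3254 CPM in RBPJ uninduced, against 501 to 1626 CPM in the other groups. The 5 mast cell and basophil markers summed to 873 and 567 CPM in RBPJ uninduced, 82.8 and 68.1 CPM in Control and 334 and 342 CPM in RBPJ 6 days induced. Natural killer and innate lymphoid markers summed to 58.2 to 103 CPM. The part of these transcripts in the results below was not tested. In bulk RNA, fewer cells that transcribe the locus and less RNA per cell cannot be told apart.

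RNA of the D, J and C segments was almost absent from RBPJ uninduced cells and was partly back after 6 days of induction. The C genes together stood at 341 and 280.4 CPM in Control, 5.39 and 3.90 CPM in RBPJ uninduced and 114 and 118 CPM in RBPJ 6 days induced. The J segments together stood at 148 and 78.7 CPM in Control, 0.522 and 2.67 CPM in RBPJ uninduced and 38.7 and 52.3 CPM in RBPJ 6 days induced. D segments had 22.9 and 10.8 CPM in Control and 5.65 and 5.87 CPM in RBPJ 6 days induced, and no count in either uninduced library, which allows up to 0.522 and 0.334 CPM. The V genes together stood at 16.1 and 31.7 CPM in Control, 2.78 and 2.67 CPM in RBPJ uninduced and 11.8 and 13.9 CPM in RBPJ 6 days induced. In each of the 4 classes both uninduced libraries lay below all 4 others, and both induced libraries lay below both Control libraries.

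**Figure D1:**
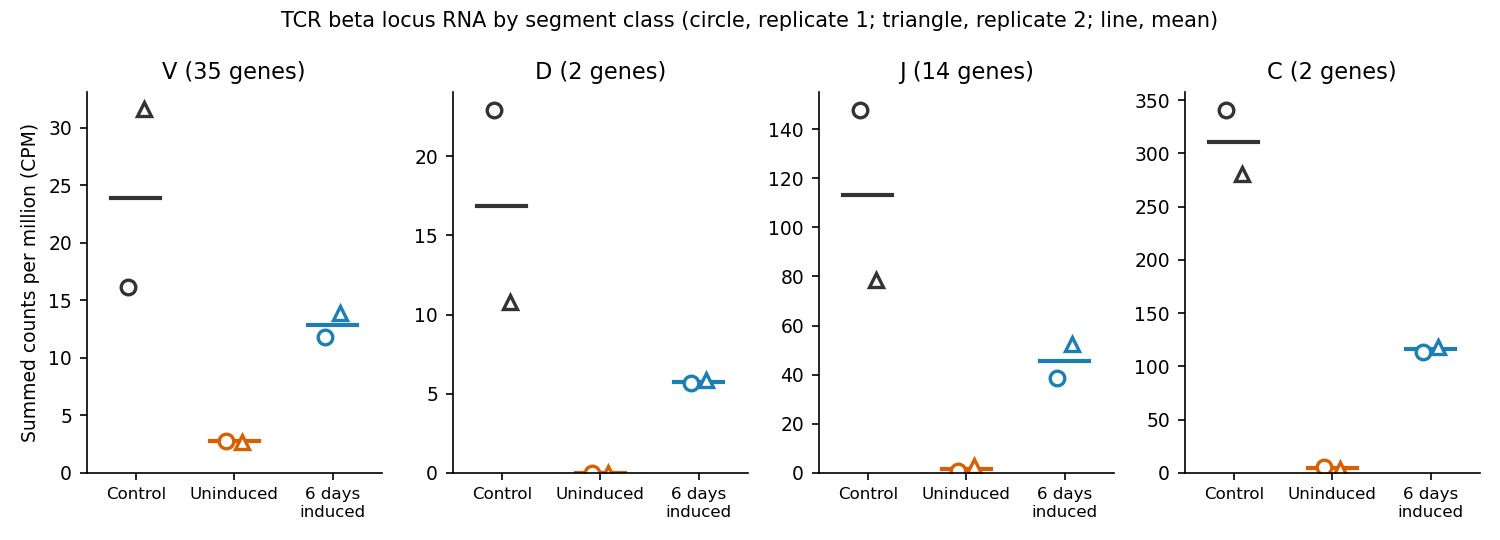
RNA of the TCR beta locus by segment class, as CPM of the summed counts in each library, with circles for replicate 1, triangles for replicate 2 and lines for the group means. Each class is lowest in both RBPJ uninduced libraries (C genes 5.39 and 3.90 CPM) and lies between them and Control in RBPJ 6 days induced (113.8 and 118.0 CPM).

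In mean CPM, the C class was 66.9-fold lower in RBPJ uninduced than in Control, the J class 70.9-fold, and the V class 8.76-fold. The D class was at least 39.4-fold lower, taking 3 counts per library as the limit that a count of 0 allows. The J value depends on which uninduced library is used, because they held 3 and 24 J counts. It was 42.3-fold without RBPJ uninduced replicate 1 and 217-fold without replicate 2. Without Control replicate 1 the limit for the D class was 25.2-fold. Induced cells stood above uninduced cells 24.9-fold in the C class, 28.5-fold in the J class (17-fold without RBPJ uninduced replicate 1 and 87.2-fold without replicate 2), 4.71-fold in the V class and at least 13.5-fold in the D class. They stood below Control by 2.68-fold, 2.49-fold, 1.86-fold and 2.93-fold in the C, J, V and D classes. Without Control replicate 1 the D class was 1.87-fold lower. No test was made on these sums. An exact permutation test of 2 libraries against 2 cannot give a p below 0.333, and the edgeR tests below are per gene.

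The C genes encode the part of the beta chain next to and across the membrane. Trbc1 (chr6:41538218-41539881) stood at 258 and 184 CPM in Control, 4.17 and 2.23 CPM in RBPJ uninduced and 76.3 and 81.4 CPM in RBPJ 6 days induced. Trbc2 (chr6:41546730-41548352) stood at 82.7 and 96.8 CPM in Control, 1.22 and 1.67 CPM in RBPJ uninduced and 37.5 and 36.5 CPM in RBPJ 6 days induced. For both genes the 3 pairs of libraries did not overlap, with uninduced lowest and Control highest. Over all genes tested, both induced libraries lay above both uninduced libraries for 24.8% and below both Control libraries for 16.8%. The share with the whole order, or with both uninduced libraries below the 4 others, is not given here or below. Per kilobase of exon, the Control means were 295 CPM for Trbc1 and 129.7 CPM for Trbc2. Trbc1 changed by -6.16 ± 0.341 (SE) on the log2 scale in RBPJ uninduced against Control (edgeR quasi-likelihood test, adjusted p = 6.33e-05) and Trbc2 by -5.91 ± 0.319 (edgeR adjusted p = 6.33e-05). Against uninduced cells, induced cells had 4.67 ± 0.328 for Trbc1 and 4.64 ± 0.311 for Trbc2 (edgeR adjusted p = 0.000507 for each). With 1 library left out, the Trbc1 difference ran from -6.68 to -5.75 and from 4.25 to 5.19 in these comparisons, and that of Trbc2 from -6.20 to -5.78 and from 4.51 to 4.93. Both genes passed the threshold of 0.05 in both comparisons under every alternative run.

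Reads of Trbc1 and Trbc2 can be exchanged between the genes. Their coding parts are identical at 495 of 518 aligned positions (95.6%), with an unbroken identical run of 259 bases. Of the 75-base windows of the Trbc1 transcript, 35.1% also occur in Trbc2, and 37.7% of those of Trbc2 occur in Trbc1. How reads that map to both were counted is not stated in the labels. The share of Trbc1 among the C counts was 75.7% and 65.5% in Control, 77.4% and 57.1% in RBPJ uninduced and 67.03% and 69.04% in RBPJ 6 days induced. These shares overlapped between the 3 groups.

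The D segments are a few bases of coding sequence between V and J, shown here because the call on this class rests on the first of them alone. They were read from the GENCODE M21 transcripts (GRCm38, the build also named mm10), 5′ to 3′ on the plus strand, at chr6:41533201-41533212 and chr6:41542163-41542176.
Trbd1: gggacagggggc
Trbd2: gggactgggggggc
Both are too short to hold a whole mapped read, so reads counted here reached into neighbouring sequence. Trbd1 had 20.3 and 9.91 CPM in Control and 5.48 and 5.59 CPM in RBPJ 6 days induced, and no count in RBPJ uninduced. It was at least 35.2-fold lower in uninduced cells than in Control (edgeR adjusted p = 0.00299), or at least 23.1-fold without Control replicate 1. It was at least 12.9-fold higher in induced than in uninduced cells (edgeR adjusted p = 0.0129), a call that was lost when the 4 compared libraries alone were fitted (adjusted p = 0.0978). Trbd2 had 35 and 5 counts in Control (2.67 and 0.884 CPM), 2 and 3 counts in RBPJ 6 days induced (0.177 and 0.280 CPM) and none in RBPJ uninduced. Its edgeR adjusted p was 0.255 for uninduced against Control and 0.539 for induced against uninduced. Trbd1 gave 88.4% and 91.8% of the D counts in Control and 96.9% and 95.2% in RBPJ 6 days induced.

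The J segments encode the end of the variable domain, with the phenylalanine-glycine motif that closes it. Those that turned up in the uninduced libraries and some of those that did not are shown to set their sequences side by side. Capitals mark the motif, searched on the coding strand as TTTGGNNNNGG or TTCGGNNNNGG, which code for Phe-Gly-any-Gly. The sequences come from the same GENCODE M21 transcripts and lie between 41533864 and 41543856 of mm10 chromosome 6. The first 5 had counts in an uninduced library, and the other 4 had none in either.
Trbj1-1: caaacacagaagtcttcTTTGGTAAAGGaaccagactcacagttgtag
Trbj1-2: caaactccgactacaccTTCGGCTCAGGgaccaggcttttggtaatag
Trbj1-3: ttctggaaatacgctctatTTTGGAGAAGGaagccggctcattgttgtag
Trbj1-5: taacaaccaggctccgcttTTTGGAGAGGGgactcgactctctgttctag
Trbj1-6: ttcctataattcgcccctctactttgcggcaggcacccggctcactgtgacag
Trbj1-4: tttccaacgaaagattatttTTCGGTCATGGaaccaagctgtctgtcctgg
Trbj1-7: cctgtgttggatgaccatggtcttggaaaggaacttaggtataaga
Trbj2-1: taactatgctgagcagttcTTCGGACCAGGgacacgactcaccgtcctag
Trbj2-6: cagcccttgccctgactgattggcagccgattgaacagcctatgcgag
Both sets hold segments with and without the motif. Trbj2-2, Trbj2-3, Trbj2-4, Trbj2-5 and Trbj2-7 also had no uninduced count and are not printed, and all of them hold the motif. The printed lines therefore do not show how common the motif is among segments without an uninduced count. It is present in 11 of the 14 Trbj segments and in 72.6% of the 62 J segments of the other T-cell receptor loci. Trbj1-6, Trbj1-7 and the pseudogene Trbj2-6 do not hold these letters. The 14 transcripts are 46 to 53 bases long. That of Trbj1-3 has 50 bases, fewer than the 54 of its annotated gene interval. By those intervals 35 to 434 bases separate neighbours within a cluster, so a single read can reach more than 1 of them. Trbj1-6 and Trbj1-7 are the closest pair.

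Of the 14 J segments, 12 had enough counts to be tested, 7 in cluster 1 and 5 in cluster 2. Trbj1-1 (edgeR adjusted p = 0.00706 for uninduced against Control) stood at 19.3 and 12.9 CPM in Control, 0.522 and 1.23 CPM in RBPJ uninduced and 6.45 and 5.22 CPM in RBPJ 6 days induced. Its 3 and 11 counts made it the leading J segment of both uninduced libraries. Trbj1-2 (adjusted p = 0.0176) stood at 24.7 and 8.49 CPM in Control, 0 and 0.669 CPM in RBPJ uninduced and 3.71 and 2.89 CPM in RBPJ 6 days induced. Trbj1-3 (adjusted p = 0.0162) stood at 15.9 and 7.08 CPM in Control, 0 and 0.446 CPM in RBPJ uninduced and 4.86 and 7.92 CPM in RBPJ 6 days induced. For these 3 segments, uninduced replicate 2 held 11, 6 and 4 counts, and both uninduced libraries were below the 4 others. Uninduced against Control, the fitted log2 difference was -4.13 ± 0.627 for Trbj1-1, -5.41 ± 1.01 for Trbj1-2 and -5.43 ± 0.996 for Trbj1-3. Without RBPJ uninduced replicate 2 the remaining library has no count of Trbj1-2 or Trbj1-3, and they were at least 31.9-fold and at least 22.04-fold lower than in Control. In mean CPM Trbj1-2 was 49.7-fold lower with all libraries and 24.9-fold without RBPJ uninduced replicate 1. Trbj1-3 was 51.6-fold and 25.8-fold lower, and Trbj1-1 18.4-fold, or 30.8-fold without RBPJ uninduced replicate 2. Without Control replicate 1 these 3 calls were lost (adjusted p = 0.0539, 0.151 and 0.0855), with Trbj1-2 25.4-fold and Trbj1-3 31.7-fold lower.

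Trbj1-5 (adjusted p = 0.00424) stood at 14.4 and 10.3 CPM in Control, 0 and 0.111 CPM in RBPJ uninduced and 4.50 and 10.1 CPM in RBPJ 6 days induced. It had 1 count in the uninduced libraries against 247 in Control, a pooled fold of 194 with an exact 95% counting interval of 34.4 to 7677. Trbj1-6 (adjusted p = 0.0386) stood at 8.60 and 3.71 CPM in Control, 0 and 0.223 CPM in RBPJ uninduced and 3.27 and 2.89 CPM in RBPJ 6 days induced. It had 2 uninduced counts against 134, a pooled fold of 52.5 (interval 14.3 to 438). All 3 of these counts were in uninduced replicate 2. In mean CPM Trbj1-5 was 221-fold lower than in Control, 111-fold without RBPJ uninduced replicate 1 and at least 23.6-fold without replicate 2. Trbj1-6 was 55.3-fold lower, 27.6-fold without RBPJ uninduced replicate 1 and at least 11.8-fold without replicate 2. It was 33.3-fold lower without Control replicate 1 and then did not pass (adjusted p = 0.223).

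Trbj1-4 and Trbj1-7 completed the first cluster and had no count in either uninduced library. Trbj1-4 had 20.9 and 11.7 CPM in Control and 3.62 and 8.01 CPM in RBPJ 6 days induced. It was at least 38.02-fold lower in uninduced cells than in Control (edgeR adjusted p = 0.00365). Trbj1-7 had 8.98 and 3.18 CPM in Control and 3.27 and 4.75 CPM in RBPJ 6 days induced. It was at least 14.2-fold lower (edgeR adjusted p = 0.0193), or at least 7.44-fold without Control replicate 1.

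No J segment of cluster 2 had a count in an uninduced library. Trbj2-1 had 12.8 and 6.37 CPM in Control and 4.77 and 3.35 CPM in RBPJ 6 days induced. Trbj2-2 had 9.82 and 5.66 CPM in Control and 1.501 and 4.29 CPM in RBPJ 6 days induced. Both passed the threshold, at least 22.4-fold lower for Trbj2-1 (edgeR adjusted p = 0.00729; at least 14.9-fold without Control replicate 1) and at least 18.1-fold lower for Trbj2-2 (adjusted p = 0.0162). Trbj2-7, with 5.63 and 4.60 CPM in Control and 0.353 and 1.77 CPM in RBPJ 6 days induced, was at least 11.96-fold lower (adjusted p = 0.0497), just inside the threshold and outside it without either Control library (adjusted p = 0.191 and 0.103). Trbj2-3, with 4.26 and 2.30 CPM in Control and 1.59 and 0.559 CPM in RBPJ 6 days induced, was outside it (adjusted p = 0.0902). So was Trbj2-6, the pseudogene, with 1.68 and 2.30 CPM in Control and 0.530 and 0.559 CPM in RBPJ 6 days induced (adjusted p = 0.210). The untested pair was close to the detection limit in every library, with 1, 0, 3 and 0 counts of Trbj2-4 and 10, 1, 0 and 0 counts of Trbj2-5 in the 4 Control and induced libraries.

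**Figure D2:**
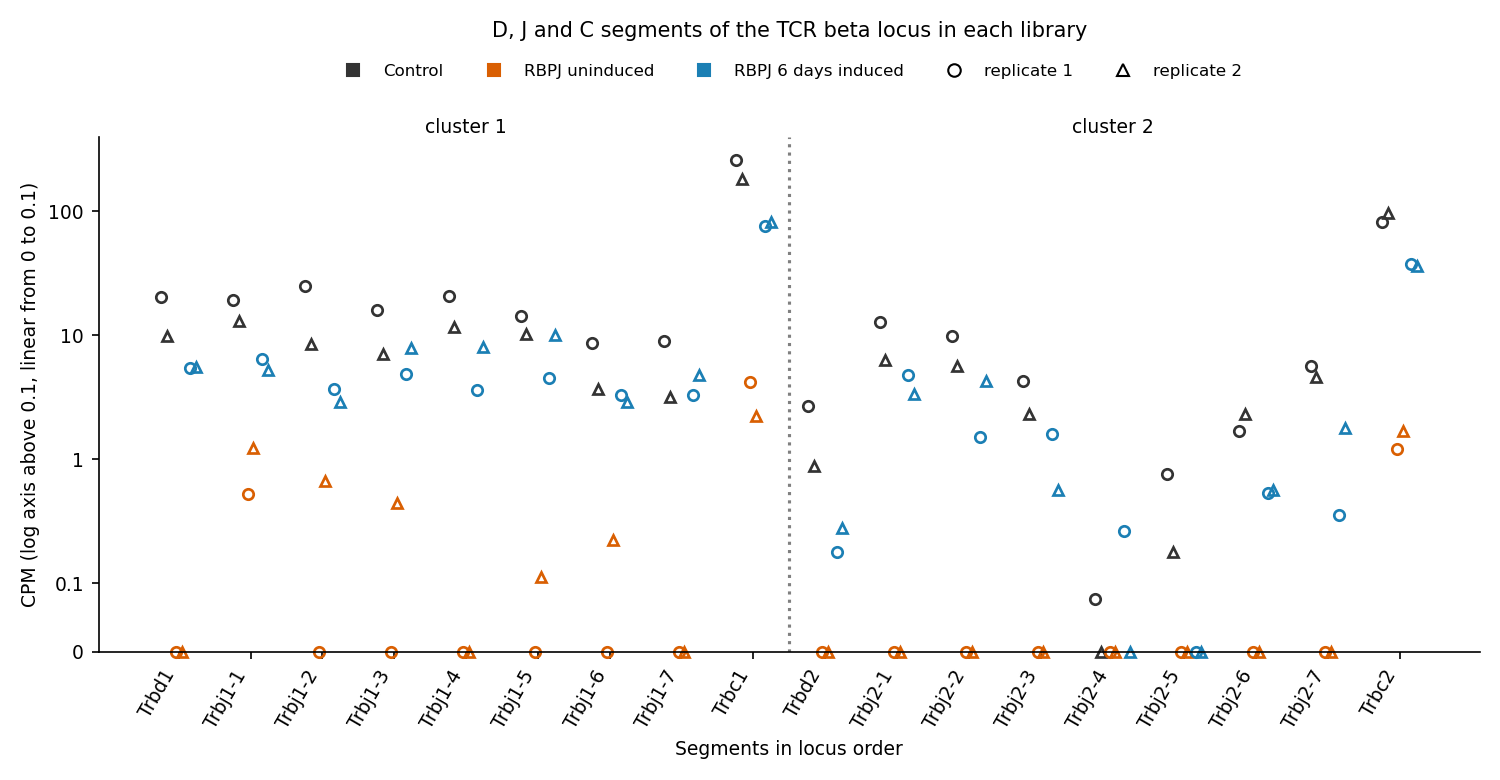
Level of each D, J and C segment in each library in CPM, on an axis that is logarithmic above 0.1 and linear below it. Segments are in locus order and the dotted line separates the clusters; uninduced libraries (orange) are at 0 for every D and J segment of cluster 2, while Trbc2 stands at 1.22 and 1.67 CPM.

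In RBPJ uninduced against Control, 13 of the 22 tested members were lower by edgeR and 0 were higher. Over all 18174 genes tested, 2.93% were lower and 2.49% higher. DESeq2 called 16 members lower and 0 higher, and no member with an unadjusted p under 0.05 was higher by edgeR. The DESeq2 share over all genes is not given here, so its count has no background beside it. The 13 were 1 D segment, 10 J segments and both C genes. The median fitted log2 difference of the 16 tested D, J and C members was -7.24, against -0.02 over all genes. As log2 ratios of mean CPM, with the 9 that had no uninduced count set at their limits, the median was -4.81. A member that is 0 in uninduced cells entered the test only through the other groups, so this median and count describe the tested members and not all 53. Without Control replicate 1, the deeper Control library, 6 members were still called: Trbd1, Trbj1-4, Trbj1-5, Trbj2-1, Trbc1 and Trbc2. Also 6 were called when only the 4 compared libraries were fitted.

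After 6 days of induction, RNA of both C genes, Trbd1 and some J segments rose above the uninduced level. Of the 22 tested members 7 were higher and 0 lower, against 1.55% and 0.413% of all genes. No member with an unadjusted p under 0.05 was lower by edgeR, and DESeq2 called 13 higher and 0 lower. Here too no DESeq2 share over all genes is given beside its count. This comparison shares the uninduced libraries with the one above, so a low uninduced count enters both. Besides Trbc1, Trbc2 and Trbd1 these were Trbj1-4, Trbj1-5, Trbj1-7 and Trbj2-1. Trbj1-4 was at least 13.6-fold higher than in uninduced cells (edgeR adjusted p = 0.0159), or at least 8.46-fold without induced replicate 2. Trbj1-7 was at least 9.37-fold higher (adjusted p = 0.0439) and Trbj2-1 at least 9.49-fold (adjusted p = 0.0264). Trbj1-5 had 159 induced counts against 1, a pooled fold of 106 (exact 95% counting interval 18.8 to 4219; adjusted p = 0.0142). In mean CPM that fold was 131, or 65.4 without RBPJ uninduced replicate 1, at least 13.96 without replicate 2 and 80.8 without induced replicate 2. The call on Trbj1-7 was lost without Control replicate 1 and without either induced library (adjusted p = 0.0526 to 0.0933). The median fitted log2 difference of the 16 tested D, J and C members was 5.84, against -0.03 over all genes. As log2 ratios of mean CPM, with 8 members without an uninduced count set at their limits, the median was 3.30. Trbd2, which also had no uninduced count, is left out there because its limit is below 1-fold.

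The J segments that did not pass included the one with the most uninduced counts. Trbj1-1 had a fitted log2 difference of 2.67 ± 0.608 (edgeR adjusted p = 0.0642). Trbj1-2 had 3.08 ± 0.978 (adjusted p = 0.162) and Trbj1-3 4.57 ± 0.981 (adjusted p = 0.0526). For all 12 tested J segments, both induced libraries lay above both uninduced libraries, as they did for 24.8% of all genes. Of the 12, 7 had no uninduced count and entered the test only through the other groups. Any count in both induced libraries put them above, so the 2 values cannot be compared. The fit without RBPJ uninduced replicate 2, the library with 24 of the 27 uninduced J counts, called 12 members higher. Fitting only the 4 compared libraries called 2, Trbc1 and Trbc2.

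**Figure D3:**
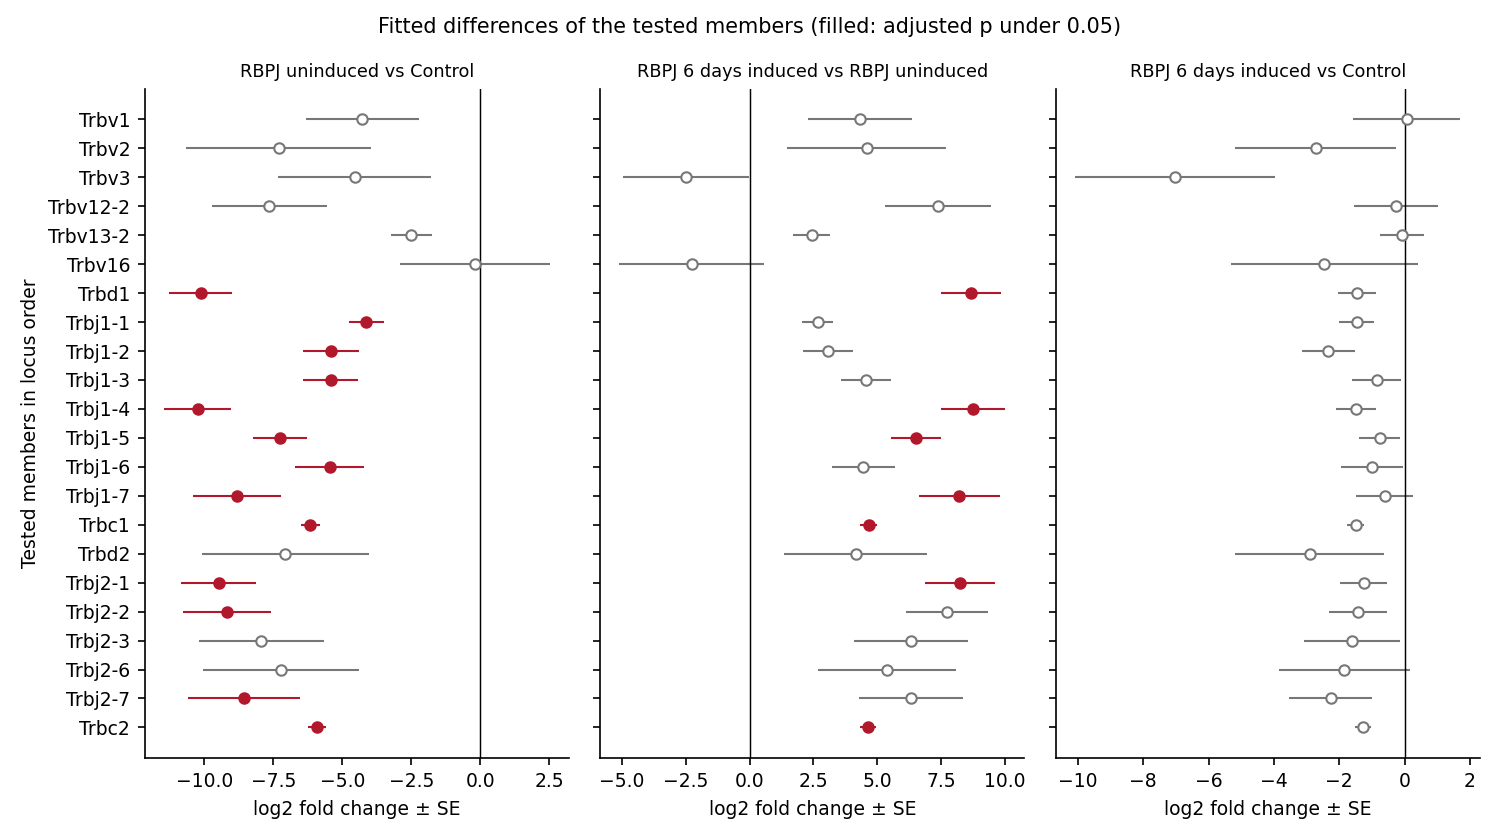
Fitted log2 fold change with its standard error for each of the 22 tested members in the 3 comparisons, filled where the adjusted p is under 0.05. Differences of members with no count in a group depend on a prior count in the fit; Trbc1 and Trbc2 have counts in every library and stand at -6.16 and -5.91, 4.67 and 4.64, and -1.49 and -1.28.

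Induced cells had less D, J and C RNA than Control cells in these libraries, but no member passed the threshold. In RBPJ 6 days induced against Control edgeR called 0 of 22 members in either direction (0.187% of all genes were higher and 0% lower). Unadjusted edgeR p was under 0.05 for 7 of the 22, but the share of all genes under that cut is not given here. DESeq2 called 2 lower, Trbc1 and Trbc2, against 0.351% of the genes it tested. Trbc1 had a log2 difference of -1.49 ± 0.260 (edgeR adjusted p = 0.0666) and Trbc2 -1.28 ± 0.239 (adjusted p = 0.0901). DESeq2 gave adjusted p = 2.91e-06 and 0.000425, and edgeR on the 4 compared libraries alone gave 0.00707 and 0.0106. Trbd1 had -1.45 ± 0.578 (adjusted p = 0.874). Both induced libraries were below both Control libraries for 14 of the 16 tested D, J and C members, all except Trbj1-3 and Trbj1-7. The same held for 16.8% of all genes. The median fitted log2 difference of these 16 was -1.46, against -0.02 over all genes. Some of the 16 entered the test through Control, such as Trbd2 with 35 and 5 Control counts and 2 and 3 induced counts. Neighbouring segments can also share reads. This count and median therefore describe the tested members, and they cannot be compared with the values over all genes. The ratio of the means ran from 0.198 for Trbj1-2 to 0.659 for Trbj1-7 among the tested J segments, with a median of 0.368. Trbj1-2 was 5.04-fold lower in induced cells than in Control with all libraries and 2.57-fold without Control replicate 1. Trbj1-7 reversed without Control replicate 1, to 1.26-fold higher in induced cells.

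Cluster 1 gave most of the D, J and C counts in every library. Cluster 1 summed to 391 and 251 CPM in Control, 4.69 and 4.90 CPM in RBPJ uninduced and 111 and 129 CPM in RBPJ 6 days induced. Cluster 2 summed to 120.4 and 119 CPM in Control, 1.22 and 1.67 CPM in RBPJ uninduced and 46.7 and 47.3 CPM in RBPJ 6 days induced. The mean was 66.9-fold lower in uninduced cells than in Control for cluster 1 and 82.9-fold lower for cluster 2. Induced cells stood 25.03-fold and 32.6-fold above uninduced cells. The share of cluster 1 was 76.5% and 67.8% in Control, 79.4% and 74.6% in RBPJ uninduced and 70.5% and 73.1% in RBPJ 6 days induced. The uninduced shares rest on 34 and 59 counts, with exact 95% binomial intervals of 62.1 to 91.3% and 61.6 to 85.02%, which cover counting error only and include all 4 other shares.

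**Figure D4:**
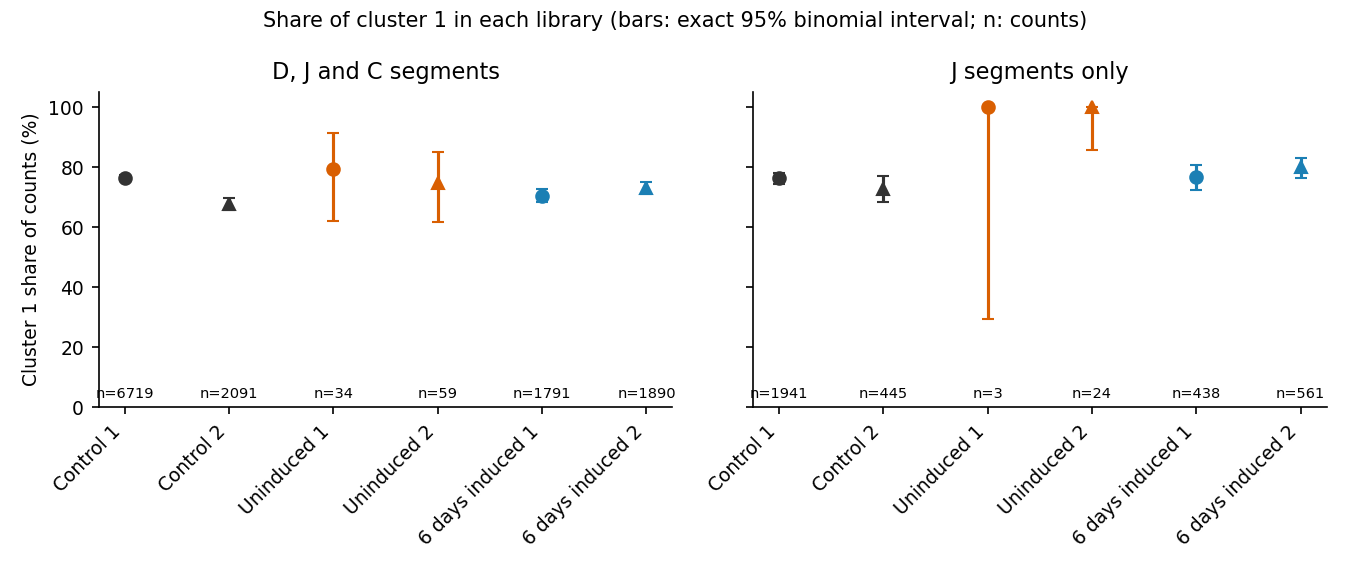
Share of cluster 1 among the D, J and C counts and among the J counts alone, in percent per library, with exact 95% binomial intervals and the number of counts. With D, J and C together the shares lie between 67.8% and 79.4% in all 6 libraries; with J alone both uninduced libraries are at 100%, from 3 and 24 counts.

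Among the J segments alone, which do not resemble each other as the C genes do, the share of cluster 1 was 76.3% and 72.8% in Control, 100% and 100% in RBPJ uninduced and 76.7% and 79.9% in RBPJ 6 days induced. The uninduced values are 3 of 3 counts and 24 of 24 counts, and the latter has a lower 95% limit of 85.8%. The upper limits in the 4 other libraries were 76.9% to 83.1%. The difference between groups was not tested, and it rests on 1 library. Trbc2 counts (7 and 15) remained in the uninduced libraries, but the C genes can exchange reads. Order within a cluster varied between libraries. The leading J segment was Trbj1-2 in Control replicate 1, Trbj1-5 in induced replicate 2 and Trbj1-1 in the other 4. Trbj1-2 took 16.7% and 10.8% of J counts in Control and 9.59% and 5.53% in induced cells. Trbj1-3 took 10.8% and 8.99% in Control and 12.6% and 15.2% in induced cells. These were descriptions of the counts, with no test.

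The share of J among the J and C counts was 30.2% and 21.9% in Control, 8.82% and 40.7% in RBPJ uninduced and 25.4% and 30.7% in RBPJ 6 days induced. The uninduced values were the lowest and the highest of the 6, on 34 and 59 counts, so J and C RNA could not be ranked in how far they fell. The share of V genes among all counts at the locus was 3.06% and 7.89% in Control, 32% and 28.9% in RBPJ uninduced and 6.96% and 7.31% in RBPJ 6 days induced. It was higher in both uninduced libraries than in any other, out of only 50 and 83 counts. Of the 16 V counts in uninduced replicate 1, 11 were of Trbv16, which had 0 in replicate 2. Of the 24 in replicate 2, 15 were of Trbv13-2 and 7 of Trbv31.

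The V genes encode most of the antigen-contacting domain. Each has its own promoter. Of the 35, 24 had a count in some library, 10 reached 10 counts in a library, and 6 could be tested. The 11 with no count anywhere included 8 pseudogenes. The number of V genes with a count was 10 and 19 in Control, 3 and 4 in RBPJ uninduced and 6 and 12 in RBPJ 6 days induced.

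Trbv13-2 (chr6:41121396-41121832) was the V gene with the most counts. It stood at 8.83 and 4.95 CPM in Control, 0.695 and 1.67 CPM in RBPJ uninduced and 6.62 and 6.52 CPM in RBPJ 6 days induced. Its uninduced libraries were below all others, and its induced libraries lay between the Control libraries. The log2 difference was -2.50 ± 0.736 for uninduced against Control (edgeR adjusted p = 0.0897) and 2.43 ± 0.734 for induced against uninduced (adjusted p = 0.143). DESeq2 gave adjusted p = 0.0243 and 0.0416. Against Control, induced cells had -0.08 ± 0.670 (adjusted p = 1.00), which turned to 0.46 without Control replicate 1.

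Trbv12-2 had 2.36 and 3.01 CPM in Control and 1.59 and 2.89 CPM in RBPJ 6 days induced and no uninduced count, at least 6.27-fold lower than in Control (edgeR adjusted p = 0.0774). Trbv1, the V gene farthest from the D segments, stood at 0.838 and 2.65 CPM in Control, 0.174 and 0 CPM in RBPJ uninduced and 2.12 and 1.49 CPM in RBPJ 6 days induced (adjusted p = 0.308). Both were higher in the 4 Control and induced libraries than in either uninduced library, an order whose share over all genes is not given. Trbv2 stood at 0.914 and 3.36 CPM in Control, 0 and 0 CPM in RBPJ uninduced and 0.618 and 0 CPM in RBPJ 6 days induced (adjusted p = 0.292). Trbv3 stood at 1.22 and 2.30 CPM in Control, 0 and 0.111 CPM in RBPJ uninduced and 0 and 0 CPM in RBPJ 6 days induced (adjusted p = 0.449). These 2 were detected in both Control libraries but had 7 and 0 induced counts of Trbv2 and none of Trbv3. Trbv16 stood at 0.0761 and 2.12 CPM in Control, 1.91 and 0 CPM in RBPJ uninduced and 0 and 0.373 CPM in RBPJ 6 days induced (adjusted p = 0.990), with its groups overlapping. Trbv15, not tested, stood at 0 and 0.708 CPM in Control, 0 and 0 CPM in RBPJ uninduced and 0.706 and 1.12 CPM in RBPJ 6 days induced. Trbv31, not tested, stood at 0.152 and 2.83 CPM in Control, 0 and 0.780 CPM in RBPJ uninduced and 0 and 0 CPM in RBPJ 6 days induced. It lies after Trbc2, and its counts were highest in Control replicate 2 and next in RBPJ uninduced replicate 2. By edgeR 0 of the 6 tested V genes passed the threshold in any comparison. Unadjusted p was under 0.05 for 2, 2 and 1 of them in uninduced against Control, induced against uninduced and induced against Control. These counts have no share over all genes beside them. DESeq2 called Trbv12-2 and Trbv13-2 lower in the first and Trbv13-2 higher in the second.

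The V genes other than Trbv13-2 were unevenly spread over the Control libraries. Together they stood at 7.31 and 26.7 CPM in Control, 2.09 and 1.00 CPM in RBPJ uninduced and 5.21 and 7.36 CPM in RBPJ 6 days induced. Control replicate 2 was highest, and it was also the library with the most later thymocyte transcripts, 725 CPM over 11 genes against 67.8 CPM in Control replicate 1. In RBPJ uninduced that sum was 52.3 and 194 CPM, with Ptcra at 0 in both libraries and Ccr7 at 0 in replicate 1, and in induced cells 69.8 and 82.9 CPM. Most of the 194 CPM in uninduced replicate 2 was Rag1, in the library with the highest B-lineage sum (1299.8 CPM). Cd4, Cd8a and Cd8b1 stood at 3.57, 3.01 and 1.89 CPM there. The part of later thymocyte transcripts in the V counts was not tested. The other V genes were 11.01-fold lower in uninduced cells than in Control with both Control libraries and 4.73-fold lower without Control replicate 2. Unlike the sum of these V genes, Trbd1 and 11 of the 12 tested J segments were higher in Control replicate 1 than in replicate 2. So was Trbc1 (258 and 184 CPM), but Trbc2 was not (82.7 and 96.8 CPM). The share of all genes with that order is not given here. With Control replicate 2 and RBPJ uninduced replicate 2 both left out, the fitted log2 difference of Trbv13-2 was -3.68 in uninduced against Control and 3.22 after induction. That of Trbv12-2 was -7.63 and 7.51, while Trbv16 turned to 4.41 in uninduced against Control. The spread of this fit rests on the induced pair alone.

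**Figure D5:**
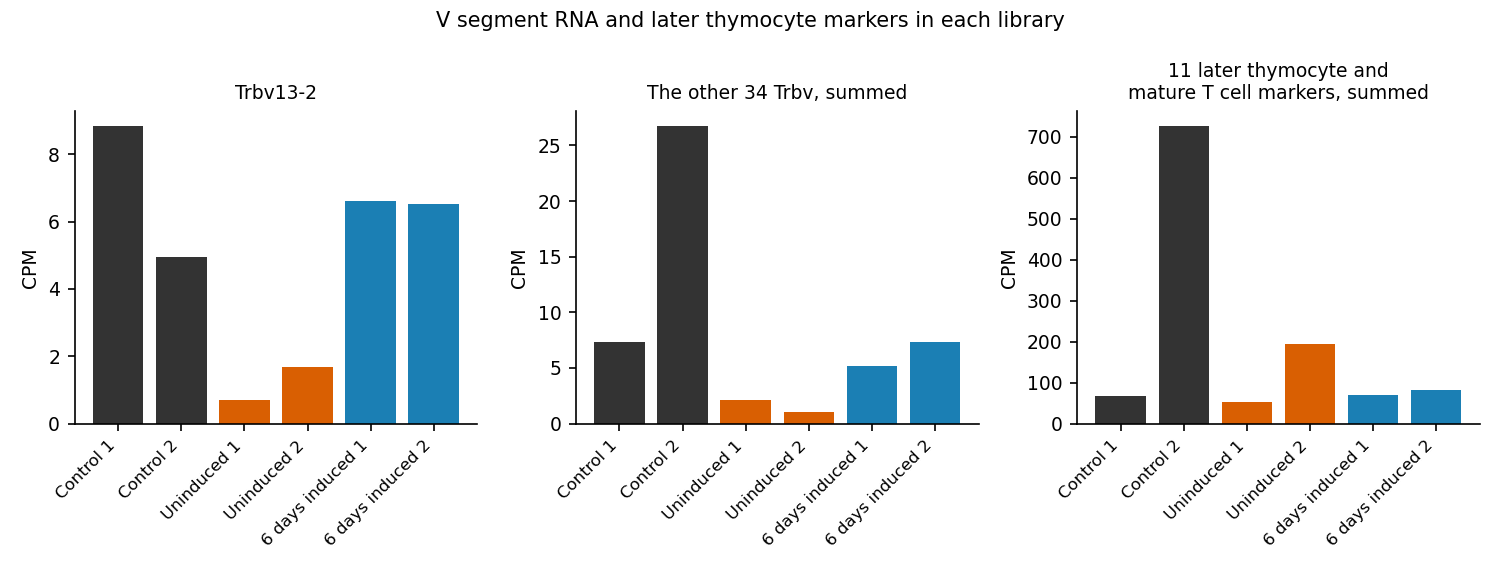
CPM in each library of Trbv13-2, of the 34 other V genes summed and of 11 later thymocyte and mature T-cell markers summed. Control replicate 2 is highest for the other V genes (26.7 CPM) and for the markers (724.9 CPM), but not for Trbv13-2 (4.95 CPM against 8.83 CPM in Control replicate 1).

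Of the recombination machinery, 12 of 12 genes were tested. In uninduced cells 2 were lower than in Control and 1 was higher, against 2.93% and 2.49% of all genes. Dntt, the terminal transferase that adds bases at the junctions, stood at 953 and 696 CPM in Control, 1.39 and 30.1 CPM in RBPJ uninduced and 250.4 and 243 CPM in RBPJ 6 days induced. Its log2 difference was -5.65 ± 0.875 (edgeR adjusted p = 0.00769), and 3.91 ± 0.813 after induction (adjusted p = 0.0465). In mean CPM it was 52.4-fold lower in uninduced cells than in Control, 27.4-fold without RBPJ uninduced replicate 1 and 593-fold without replicate 2. After induction it was 15.7-fold higher than in uninduced cells, 8.19-fold without RBPJ uninduced replicate 1 and 177-fold without replicate 2, and the call was lost when the 4 compared libraries alone were fitted (adjusted p = 0.146). Xrcc6, the Ku70 subunit of end joining, changed by -1.09 ± 0.240 (adjusted p = 0.0333), and Hmgb2, a DNA-bending cofactor of RAG, by 0.96 ± 0.222 (adjusted p = 0.0391). Without Control replicate 1 neither passed (adjusted p = 0.162 for Xrcc6 and 0.0933 for Hmgb2), and Hmgb2 also did not pass without Control replicate 2, RBPJ uninduced replicate 2 or RBPJ 6 days induced replicate 2 (0.205, 0.112 and 0.0538). The median log2 difference of the 12 was -0.09 in uninduced cells against Control, and that of all genes was -0.02. Rag1, a subunit of the recombinase, stood at 15.7 and 256 CPM in Control, 10.8 and 126 CPM in RBPJ uninduced and 12.9 and 16.96 CPM in RBPJ 6 days induced. It was highest in the replicate 2 libraries of Control and RBPJ uninduced and did not pass in any comparison. Rag2 stood at 11.4 and 16.8 CPM in Control, 3.65 and 8.14 CPM in RBPJ uninduced and 6.71 and 12.9 CPM in RBPJ 6 days induced and did not pass either.

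Of 13 factors that bind or organise the locus, 3 were lower in uninduced cells and the same 3 were higher after induction, in comparisons that share the uninduced libraries. Of all genes, 2.93% were lower in the first comparison and 1.55% higher in the second. The median log2 differences of the 13 were -0.57 and 0.14, against -0.02 and -0.03 over all genes. Tcf7 encodes TCF-1, a Notch-induced factor of early T cells, and stood at 361 and 479.6 CPM in Control, 13.04 and 27.4 CPM in RBPJ uninduced and 175 and 213 CPM in RBPJ 6 days induced. It changed by -4.36 ± 0.346 and 3.24 ± 0.331 on the log2 scale (edgeR adjusted p = 0.000387 and 0.00305). Gata3, a T-lineage factor, changed by -3.09 ± 0.457 and 3.02 ± 0.455 (adjusted p = 0.00617 and 0.0145). Satb1, a chromatin organiser, changed by -2.70 ± 0.221 and 2.04 ± 0.215 (adjusted p = 0.00044 and 0.00337). In mean CPM, uninduced cells were below Control 20.8-fold for Tcf7 (32.2-fold without RBPJ uninduced replicate 2) and 8.79-fold for Gata3 (17.2-fold without it). Induced cells were above uninduced cells 9.60-fold for Tcf7 (14.9-fold without that library) and 8.37-fold for Gata3 (16.4-fold). With only the 4 compared libraries fitted, Gata3 passed in neither comparison (adjusted p = 0.0571 and 0.0761). None of the 13 passed in induced against Control. The 3 tested genes of the 5 pre-TCR and CD3 chains did not pass in any comparison. Their median log2 difference was -4.05 in uninduced cells against Control, 2.14 after induction and -1.90 in induced cells against Control. Cd247, the zeta chain, stood at 12.7 and 46.2 CPM in Control, 0 and 3.23 CPM in RBPJ uninduced and 7.77 and 7.83 CPM in RBPJ 6 days induced (adjusted p = 0.0547 for uninduced against Control).

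The constant genes of the other T-cell receptor loci passed in the same directions in 3 of 6 cases. Of all genes, 2.93% were lower in uninduced cells than in Control and 1.55% higher after induction. Tcrg-C1 stood at 17.7 and 13.4 CPM in Control, 1.22 and 3.23 CPM in RBPJ uninduced and 27.8 and 22.5 CPM in RBPJ 6 days induced. It changed by -2.76 ± 0.492 and 3.44 ± 0.499 (edgeR adjusted p = 0.0141 and 0.0123). Trdc, of the delta chain, stood at 13.2 and 16.3 CPM in Control, 0 and 1.00 CPM in RBPJ uninduced and 13.6 and 10.6 CPM in RBPJ 6 days induced (adjusted p = 0.0148 and 0.0348). Tcrg-C2 also passed in both comparisons (adjusted p = 0.0291 and 0.0337). Without Control replicate 1 the first call was lost for Tcrg-C1 and Tcrg-C2 (adjusted p = 0.0609 and 0.118), and without either induced library the second was lost for Tcrg-C2 (0.0962 and 0.0515). In mean CPM Tcrg-C1 was 7.01-fold lower in uninduced cells than in Control and 11.3-fold higher after induction, or 12.8-fold and 20.7-fold without RBPJ uninduced replicate 2. With only the 4 compared libraries fitted, Tcrg-C1, Tcrg-C2 and Trdc passed in neither comparison (adjusted p = 0.0663 to 0.188). Trac, of the alpha chain, stood at 1.52 and 13.6 CPM in Control, 0 and 0.334 CPM in RBPJ uninduced and 2.47 and 0.186 CPM in RBPJ 6 days induced and passed in neither (adjusted p = 0.137 and 0.491). Induced Tcrg-C1 lay above both Control libraries, whereas Trbc1 and Trbc2 lay below both of theirs; Tcrg-C1 did not pass in that comparison (log2 difference 0.68 ± 0.436, adjusted p = 1.00), and the difference between the loci was not tested.

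Among 35 other annotated genes within 100 kb of the locus, 7 could be tested. Ephb6, a receptor-tyrosine-kinase family member, was the 1 that passed, lower in uninduced cells (2.93% of all genes) and higher after induction (1.55%). It stood at 15.3 and 25.3 CPM in Control, 1.39 and 1.89 CPM in RBPJ uninduced and 13.8 and 11.9 CPM in RBPJ 6 days induced. It changed by -3.59 ± 0.484 in uninduced cells against Control (edgeR adjusted p = 0.00424) and by 2.94 ± 0.475 after induction (adjusted p = 0.0189). The second call was lost when only the 4 compared libraries were fitted (adjusted p = 0.0865). Prss2, a trypsinogen gene of the same interval, stood at 0.761 and 0.531 CPM in Control, 0 and 1.00 CPM in RBPJ uninduced and 2.47 and 2.61 CPM in RBPJ 6 days induced and did not pass (adjusted p = 0.969 and 0.615).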

How the data were processed

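RNA-seq counts of 6 libraries were used, 2 per group by the sample titles. The authors deposited whole-number read counts per Ensembl gene with no normalization. Per the submitters' processing notes, the tools were HISAT2, StringTie and HTSeq on mm10. Their versions and the strand setting, annotation release, read length and handling of multi-mapping reads were not stated in the notes or labels. Symbols, types and coordinates come from GENCODE M21 on GRCm38, in which 47224 of 47729 gene IDs matched. The members and gene lists were chosen with earlier results of these data known.

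edgeR 4.0.16 in R 4.3.3 tested the counts. filterByExpr (minimum count 10, minimum total 15) kept 18174 genes, among them 22 members. A single quasi-likelihood model (glmQLFit, glmQLFTest) held the 6 libraries, scaled by TMM, with group means and 3 residual degrees of freedom. It takes 1 spread for the 3 groups, although the chi-square per degree of freedom between replicates was 54.1 for RBPJ uninduced against 20.6 for Control and 16.4 for induced libraries. P-values were adjusted by Benjamini-Hochberg over all genes tested, with a threshold of 0.05, and standard errors are the log2 difference divided by the root of F. A fold against a group at 0 is a limit set by 3 counts per library. Such limits and the 95% intervals cover counting error only, since reads without molecular identifiers are not independent molecules. DESeq2 1.42.0 served as an alternative. The procedure was also run on simulated data, and the outcome is not given here. That simulation used 1 spread per gene for the 3 groups, so it did not copy their unequal spreads. Given by library are both Trbc, both Trbd, every tested Trbj and the 8 Trbv with most counts among those reaching 10 counts in a library. Other listed genes are named where they passed the threshold, with at most 3 a list that did not. Trbv12-1 and Trbv12-3 reached 10 counts but fell outside these 8. The remaining 14 detected V genes had under 10 counts in every library.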

Additional observations from a re-analysis of the deposited data

How the results depend on the processing

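With DESeq2 size factors, library totals, no filter on low counts or the replicate block, 13 members stayed lower in RBPJ uninduced than in Control, and DESeq2 called 16. The count was 6 when only the 4 compared libraries were fitted and ranged from 6 to 14 with 1 library left out. For RBPJ 6 days induced against uninduced, 7 were higher. No filter gave 12, DESeq2 13, the 4 compared libraries 2, and leaving out 1 library 6 to 12. For induced against Control, 0 were lower. No filter, DESeq2 and the 4 compared libraries gave 2 each, and leaving out 1 library 0 to 3. Leaving out Control replicate 2 and RBPJ uninduced replicate 2 together was an alternative chosen after seeing the data. It left these groups without a replicate pair, so its calls are not counted here. Where the 4 compared libraries alone were fitted, or a library was left out, fewer libraries set the spread. The cause of the changed counts was not tested under any setting. The share of all genes called is not given here for these alternatives, except for DESeq2 in induced against Control.

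Deviations of same-numbered libraries correlated at -0.0407, 0.0107 and 0.0253 over 18174 genes, so no pairing by replicate number was seen. The labels do not say whether these libraries are paired. With 2 libraries per group, such correlations cannot exclude it. With the replicate block 13 members were lower in uninduced cells, 9 higher after induction and 1, Trbc1, lower in induced cells than in Control (adjusted p = 0.0194).

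By library totals the cluster 2 mean moved from 119.7 to 124 CPM in Control and from 47.0 to 46.4 CPM in RBPJ 6 days induced. With J segments only, the share of cluster 1 moved from 77.0% to 100% in RBPJ uninduced and from 71.8% to 78.3% in RBPJ 6 days induced. No difference that passed the threshold changed direction. Of the other listed genes, Tcf7, Satb1 and Ephb6 kept the call against Control in every alternative, while fitting only the 4 compared libraries ended those on Gata3, Dntt, Xrcc6, Hmgb2, Tcrg-C1, Tcrg-C2 and Trdc. In induced against uninduced, the same fit ended the calls on Ephb6, Gata3, Dntt, Tcrg-C1, Tcrg-C2 and Trdc, and Tcf7 and Satb1 kept theirs in every alternative. Among the differences that did not pass, Trbv16 in uninduced against Control turned to log2 values of 1.78 with the block and 4.41 without both libraries above, and ranged from -6.40 to 3.37 with 1 library left out (0.85 without RBPJ uninduced replicate 2). In induced against uninduced its range was -6.08 to 3.98, and in induced against Control -6.31 to 1.12, with 1.12 also without both. In that last comparison Trbv1 was at -0.0113 with DESeq2 size factors, -0.0277 with library totals and 1.06 without both, and ranged from -0.50 to 1.06 with 1 library left out. Trbv12-2 ranged from -0.76 to 0.14, Trbv13-2 from -0.46 to 0.46, Trbj1-7 from -1.20 to 0.38 and Gata3 from -0.32 to 0.23. With 5098927 counts in the shallowest library, levels below 0.522 CPM could not be told from 0 there.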
